A study of Caenorhabditis elegans with 2 samples.

Results

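The piRNA clusters of chromosome IV are the stretches from 4500 to 7000 kb (left cluster) and from 13500 to 17200 kb (right cluster), where most piRNA genes of the nematode Caenorhabditis elegans lie. They held 330 of the 1266 reproducible NHR-71 summits of chromosome IV, and 8210 summits lay elsewhere in the genome. A summit is the base that the authors gave as the point of highest signal in a peak, and reproducible means past their threshold on the irreproducible discovery rate (IDR) between replicates. The left cluster held 188 summits and the right cluster 142. All summits inside the bounds were taken, whatever their signal, and the other 936 summits of chromosome IV served for comparison.

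NHR-71 is a nuclear hormone receptor, and its binding was mapped by chromatin immunoprecipitation and sequencing in whole L1 hermaphrodites. The worms were of strain OP480, which carries unc-119(tm4063) on chromosome III and the integrated transgene wgIs480. This transgene makes NHR-71 with a C-terminal GFP-FLAG tag, and an antibody against GFP was used on chromatin broken by sonication. Larvae hatched from bleached animals were held without food and were collected 6 h after this synchronization. There was 1 group of 2 biological replicates, both from this 1 transgenic line, and no other genotype or treatment. The immunoprecipitated protein came from the transgene, and the whole larva mixes all cell types, so a summit cannot be placed in a tissue. The peak lists hold no read counts, so the depth is unknown.

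piRNAs are short RNAs that guide Piwi proteins to foreign or self transcripts in the germ line. In C. elegans they are called 21U-RNAs for their length and their first base, and they are bound by the Piwi protein PRG-1. Most are made from very small genes, each with its own start site and a conserved upstream sequence known as the Ruby motif, whose centre reads GTTTCA. A complex of PRDE-1, SNPC-4 and TOFU proteins gathers on these clusters in germ cells and is needed for their transcription.

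The annotation placed 14204 piRNA genes in the clusters, which is 96.5% of those on chromosome IV and 92.5% of all 15363. The left cluster held 2816 and the right cluster 11388. All 14204 were 21 bases long and 96.2% began with T. The word GTTTCA lay 30 to 60 bases upstream of 9087 of them, or 64.0% (95% Wilson interval 63.2% to 64.8%), and the longer word CTGTTTCA lay upstream of 34.7%. Genes outside both clusters on the same chromosome, 510 in number, had GTTTCA there in 53.7%. The sequences below, from the RefSeq copy of the WBcel235 (ce11) assembly, show what lies at a piRNA gene near a summit. The first pair are the genes with the upstream word that came closest to a summit in each cluster, and the second pair are the closest genes of all, which lacked it. Each runs 5′ to 3′ on the strand of the gene, the last 21 bases are the gene itself, and capitals mark GTTTCA.
21ur-6126 (right cluster, chrIV:16812382-16812462, minus strand): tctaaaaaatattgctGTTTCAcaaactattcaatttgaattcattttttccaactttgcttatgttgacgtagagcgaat
21ur-9730 (left cluster, chrIV:5779797-5779877, minus strand): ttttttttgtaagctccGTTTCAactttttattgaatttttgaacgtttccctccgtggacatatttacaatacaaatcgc
21ur-13200 (right cluster, chrIV:16181035-16181115, minus strand): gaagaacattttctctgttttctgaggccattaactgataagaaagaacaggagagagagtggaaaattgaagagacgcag
21ur-8870 (left cluster, chrIV:6839416-6839496, plus strand): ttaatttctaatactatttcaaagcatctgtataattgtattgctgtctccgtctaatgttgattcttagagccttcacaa

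For contrast, the 100 bases centred on the strongest summit of each cluster are shown, with a strong summit of the right cluster outside genes. They are on the plus strand, and capitals mark GAGAGA, the word found most often at summits among the words searched.
Y17G9B.5 summit (left cluster, chrIV:4750015-4750114): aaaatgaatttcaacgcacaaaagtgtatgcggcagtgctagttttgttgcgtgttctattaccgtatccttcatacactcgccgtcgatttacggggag
ntl-11 summit (right cluster, chrIV:15471562-15471661): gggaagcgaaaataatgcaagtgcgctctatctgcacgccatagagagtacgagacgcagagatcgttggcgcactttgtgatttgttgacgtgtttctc
Y105C5A.1 summit (right cluster, chrIV:15570889-15570988): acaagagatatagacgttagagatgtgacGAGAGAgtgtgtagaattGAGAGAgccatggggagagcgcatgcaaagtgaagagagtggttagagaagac

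The clusters were poor in NHR-71 summits, mainly the right cluster. Both clusters together held 53.2 summits per Mb, against 82.9 per Mb in the rest of chromosome IV, a ratio of 0.642. For the spread between replicates, the strongest positions of each replicate were taken, as many as in the reproducible set, which left 337 cluster summits in replicate 1 and 342 in replicate 2. The densities were then 54.4 and 55.2 per Mb in the clusters (54.8 ± 0.570, mean ± SD, n = 2) and 83.9 and 83.0 per Mb in the rest (83.5 ± 0.689, n = 2). The gap between clusters and rest was therefore far larger than the difference between replicates. That difference does not measure how much stretches of a chromosome vary among themselves.

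The clusters differed from each other. The right cluster had 38.4 summits per Mb in the reproducible set, 40.0 in replicate 1 and 39.2 in replicate 2. The left cluster had 75.2, 75.6 and 78.8 in the same order. The left end of the chromosome, which has few piRNA genes, had 65.6 summits per Mb and so lay below the left cluster, while the middle had 95.7 and the short right end 64.7. Whole chromosomes ranged from 68.7 per Mb on V to 107 on X, with 72.4 on IV. Protein-coding genes were also sparser in the right cluster, at 124 per Mb, than in the left cluster (193), the left end (165) and the middle (234), and their part in the summit density was not tested. With 2 replicates of 1 group a two-sided exact sign-flip test cannot give a p below 0.5, so all comparisons here are descriptions with the values of both replicates.

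**Figure D1:**
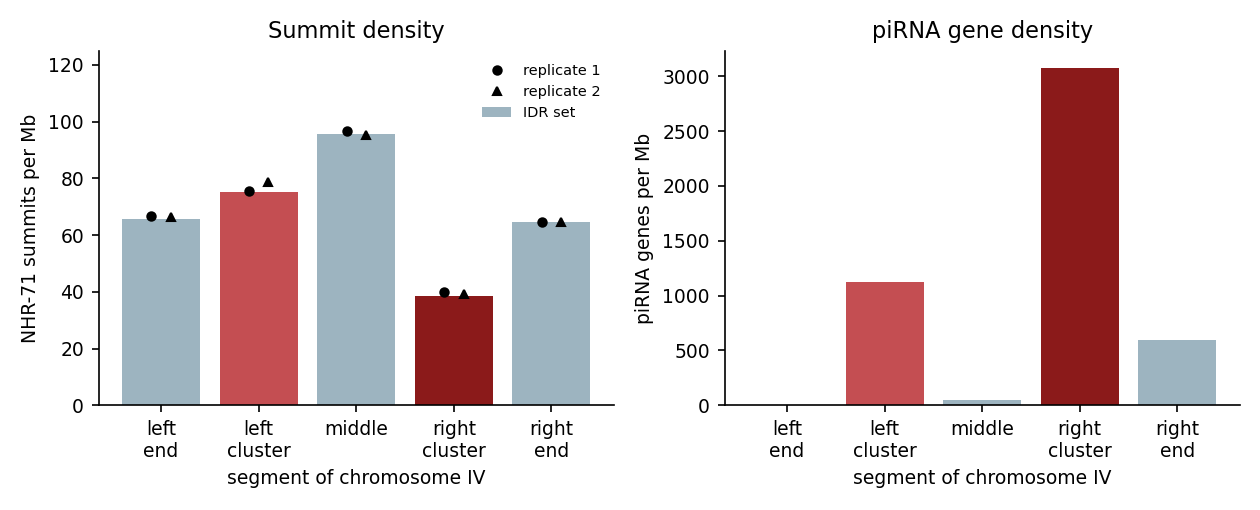
NHR-71 summits per Mb (left panel) and piRNA genes per Mb (right panel) in the 5 segments of chromosome IV. Bars are the reproducible set, circles and triangles the 2 replicate lists. The right cluster has the most piRNA genes (3078 per Mb) and the fewest summits (38.4 per Mb), and the left cluster (1126 piRNA genes per Mb) lies above the left end in summits.

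Summits in both clusters together had a somewhat higher median signal than the rest of the chromosome, and the right cluster carried this difference. Their median signal, on the authors' own scale, was 238 in the reproducible set, against 204 in the rest of the chromosome. The replicate lists gave 123 against 105 in replicate 1 and 110 against 103 in replicate 2, so the order was the same in both but the size of the difference was not. The right cluster, with the fewest summits per Mb, had the highest median of the 5 segments, 272. The left cluster had 213, below the 244 of the left end, and in replicate 2 its 97.9 lay below the 103 of the rest of the chromosome. Of 30000 pooled positions in the genome, which include background, 28.5% entered the reproducible set. In the right cluster 142 of 431 did, or 32.9% (28.7% to 37.5%), and in the left cluster 188 of 678, or 27.7% (24.5% to 31.2%), so neither share stood far from the background. Of the 330 cluster summits, 308 (93.3%) lay inside a top peak of replicate 1 and 305 (92.4%) inside one of replicate 2. In the rest of the chromosome it was 92.3% and 90.4%, so the clusters were near that background. High shares follow from the choice of these summits by their reproducibility between the replicates.

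Long stretches without a summit took up most of the right cluster. The median distance between neighbouring summits was 5772 bp in the reproducible set, 5912 bp in replicate 1 and 5954 bp in replicate 2, against 4389, 4314 and 4615 bp in the rest of the chromosome. The quartiles in the clusters were 1683 and 18945 bp. Medians of the left and right cluster were close, 6012 and 5125 bp, although the right cluster had the lower density. What set them apart was the long distances. In the right cluster 25 distances passed 50 kb and together covered 2.57 Mb, or 69.4% of its length (67.9% and 69.2% in the replicates). The left cluster had 9 such distances, which covered 31.7% (26.5% and 27.0%), and in the rest of the chromosome 44 covered 28.0% (27.5% and 26.7%). The rest was itself mixed, with 41.4% in the left end (37.7% and 40.0%), more than in the left cluster, and 19.2% in the middle (21.8% and 17.9%). Distances of up to 1000 bp made up the same share in the clusters and in the rest, 14.6% in each.

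**Figure D2:**
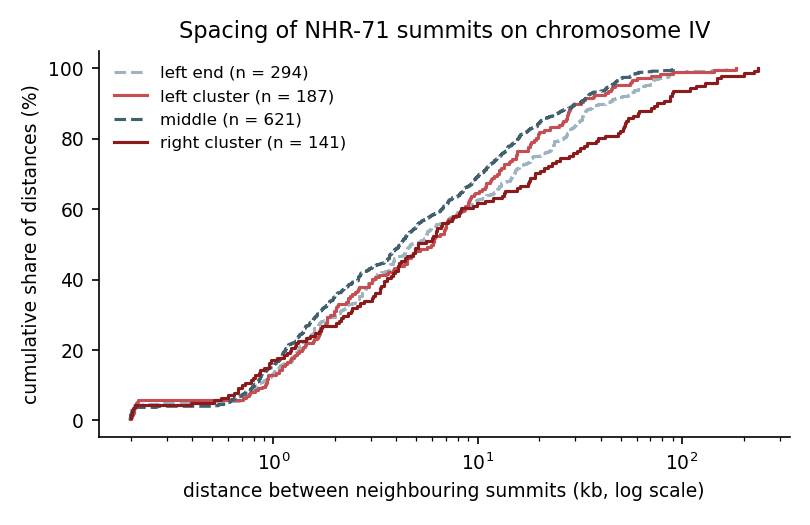
Cumulative share of distances between neighbouring summits (kb, log scale) in 4 segments of chromosome IV, reproducible set. The curves run close together up to about the medians (4200 bp in the middle to 6012 bp in the left cluster), and the right cluster departs at long distances, with an upper quartile of 27992 bp against 15400 bp in the left cluster.

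The longest stretch without a reproducible summit ran from chrIV:15931995-16168191 in the right cluster, 236 kb that hold 1002 piRNA genes and 14 starts of protein-coding genes. The replicate lists had 3 and 1 positions in it. Its ends lay 1414 bp from the start of Y105C5B.9 and 2487 bp from that of gln-3, a glutamine synthetase gene. Other long stretches of the right cluster measured 225 and 201 kb and held 803 and 472 piRNA genes. The longest of the left cluster ran from chrIV:4880896-5063577, 183 kb with 235 piRNA genes and 46 coding starts, and 1 position in each replicate list. It ended 999 bp from the start of msp-57, which encodes a major sperm protein, and the gene at its other end belongs to the chemoreceptors, which are not named here.

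Within each cluster, the number of summits did not follow the number of piRNA genes. Over 62 bins of 100 kb, Spearman's rho between piRNA genes and summits was -0.29 in the reproducible set, -0.25 in replicate 1 and -0.29 in replicate 2. Within the 25 bins of the left cluster it was 0.07, and within the 37 of the right cluster -0.06 (0.04 and -0.04 in the replicates), so the pooled value came from the difference between the clusters. The bins lie on 1 chromosome and differ in GC content, from a mean of 34.6% in bins with fewer than 100 piRNA genes to 31.6% in those with 300 or more, and its part in these values was not tested. The right cluster had 39.5 summits per Mb in 19 bins with 300 or more piRNA genes and 38.2 in 17 bins with 149 to 298. The left cluster had 73.6 in 14 bins with 110 to 220 and 77.3 in 11 bins with fewer. Of the 62 bins, 7 held no summit.

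**Figure D3:**
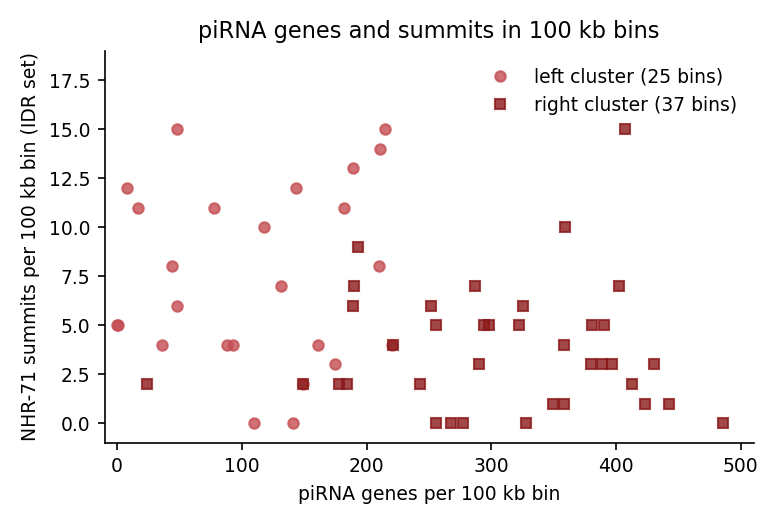
piRNA genes (x axis) and reproducible NHR-71 summits (y axis) in each 100 kb bin of the clusters, 1 point per bin. Within the left cluster (25 bins) and within the right cluster (37 bins) the points show no slope, with Spearman's rho of 0.07 and -0.06.

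Promoters took a smaller share of summits in the clusters than in the rest of chromosome IV, and the space outside genes a larger one. The shares of positions differed in the same directions. A promoter here begins 1000 bp upstream of the annotated start of a protein-coding gene and ends 200 bp past it. Of the 330 cluster summits, 104 lay in one, or 31.5% (26.7% to 36.7%), against 394 of 936, or 42.1% (39.0% to 45.3%), in the rest of the chromosome. The replicates gave 32.1% ± 0.499 and 43.2% ± 0.356 (SD, n = 2). Promoter windows also covered less of the clusters, 16.6% of positions against 21.9%. The promoter share of summits was 31.9% in the left cluster, against 20.8% of positions, and 31.0% in the right, against 13.7% of positions. Near-equal shares of summits thus stood over unequal shares of positions. The share of summits was 34.9% in the left end (17.9% of positions), close to that of the clusters. It was higher in the middle, 45.5% (24.5% of positions), and the right end, 42.1% (8 of 19, 26.2% of positions). Outside genes lay 134 cluster summits, 40.6% against 26.5% in the rest, close to the 40.2% and 22.4% of positions there. By cluster it was 38.8% of summits against 29.5% of positions in the left, but 43.0% against 47.4% in the right. Coding exons held 4 cluster summits, or 1.21%, although they cover 13.8% of positions. Introns held 82, or 24.8%, against 27.5% of positions.

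Counted by genes, 123 of the 941 protein-coding genes of the clusters had a summit in the promoter window, which is 13.1% (11.1% to 15.4%), against 20.8% of 19973 in the genome. The replicates gave 13.2% and 13.8%. It was 71 of 482 genes (14.7%, 11.8% to 18.2%) in the left cluster, 52 of 459 (11.3%) in the right and 484 of 2340 (20.7%) in the rest of the chromosome. The rest was mixed, with 16.9% (14.4% to 19.8%) in the left end, 23.0% in the middle and 10.8% (8 of 74) in the right end. A share as low as that of the clusters was thus not particular to them. Of the 104 summits in promoters, 25 stood in windows of genes on both strands, so that which gene they belong to cannot be told.

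Of the 20 strongest cluster summits, 10 per cluster, 14 stood in promoters. Their nearest piRNA gene lay 222 to 30220 bp away, and 8 of the 20 had one within 1000 bp. The strongest of the left cluster, at base 4750065, ranked 8 in the genome with a signal of 4328, and 2453 and 1888 in the replicate lists. It lay between the divergent genes Y17G9B.5 and rpl-20, a gene of the large ribosomal subunit, 17659 bp from the nearest piRNA gene. Next came the summit shared by ipla-6, a gene of the phospholipase A family, and mif-4, a homologue of the cytokine MIF, with 2597 (1540 and 1075 in the replicates), 5922 bp from a piRNA gene. The promoter of sqd-1, a gene for an RNA-binding protein related to Drosophila Squid, followed with 1916 (1068 and 853). The summit of F29B9.11 and jmjd-1.2, a histone demethylase gene, had 1627 (860 and 775) and the most distant piRNA gene of the 10 strongest in the left cluster, at 30220 bp. W03F8.4 had 1622, Y73B6BL.29 had 1546 and C49A9.10 had 1238, all in the promoter.

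The other 3 of the left 10 stood far from a coding start. A summit of 1386 lay 3178 bp downstream of the start of K08F11.1, outside genes. A summit of 1267 (677 and 594) lay in an intron of fkh-7, which encodes a forkhead transcription factor, 6623 bp from its start and 295 bp from a piRNA gene. A summit of 1264 (660 and 608) lay 3704 bp upstream of lip-1, a gene for a phosphatase that acts on MAP kinase in the germ line, and 222 bp from the piRNA gene 21ur-8870. That interval also holds the weaker summit nearest to any piRNA gene.

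In the right cluster the strongest summit, at base 15471612, ranked 80 with 2253 (1289 and 969 in the replicates) and lay 117 bp upstream of ntl-11, which encodes a homologue of a CCR4-NOT deadenylase subunit. The nearest piRNA gene was 2725 bp away. The promoter of dld-1, the dihydrolipoamide dehydrogenase gene of mitochondria, had 1959 (1088 and 880). The promoter of mrps-7, a mitochondrial ribosomal protein gene, shared with Y57G11C.3, had 1309 (751 and 555). Y105C5A.1268 and a divergent neighbour shared a summit of 1634, and Y73F8A.27 had 1465. The promoter of lin-66, a gene of developmental timing, had 1214 (576 and 637). The summit shared by tsr-2, a homologue of a ribosome biogenesis factor, and set-26, which encodes a SET domain protein, had 1213.

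The right cluster, like the left, had 3 of its 10 strongest summits far from a coding start. The summit of 1959 (1154 and 810) whose sequence is shown above lay 6512 bp upstream of Y105C5A.1 and 296 bp from a piRNA gene. One of 1451 (685 and 774) lay 13374 bp upstream of irld-18, a gene of the receptor L-domain family, and 416 bp from a piRNA gene. One of 1256 (737 and 514) lay 10490 bp from the start of Y37A1B.7 and 883 bp from a piRNA gene. The lists are scaled separately, so the replicate signals give ranks within a list and are not compared between lists.

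**Figure D4:**
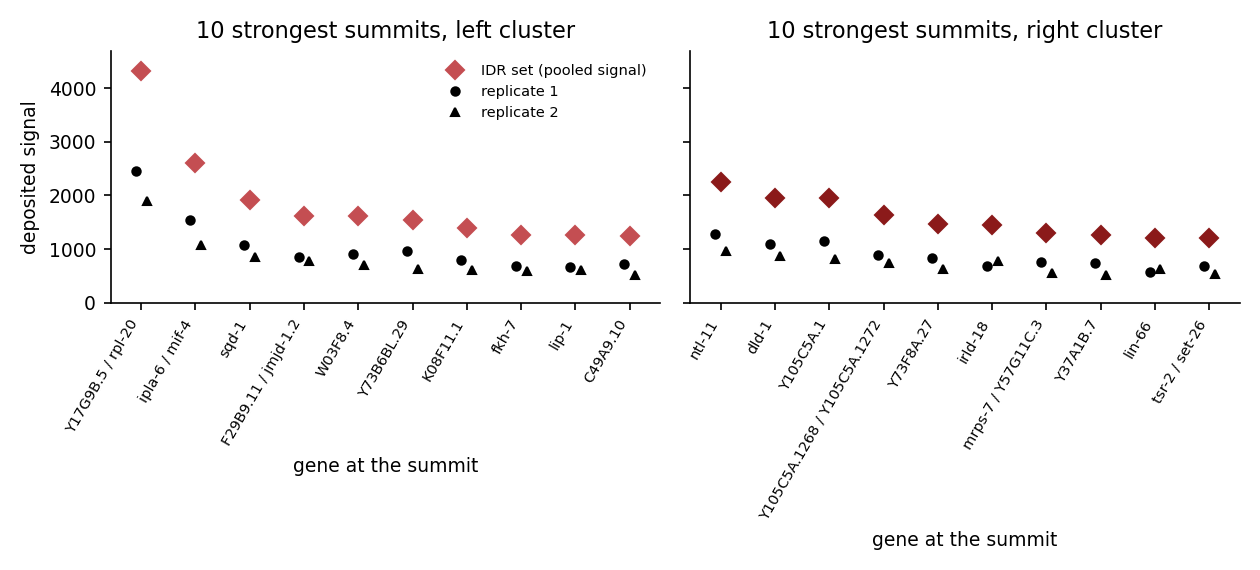
Deposited signal of the 10 strongest summits of each cluster by gene, in the reproducible set (diamonds) and in both replicate lists (circles, triangles), each on its own scale. The left cluster falls from 4328 at Y17G9B.5 and rpl-20 to 1238, and the right from 2253 at ntl-11 to 1213.

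Seen from the piRNA genes, NHR-71 summits were far away. The median distance from the 5′ end of a cluster piRNA gene to the nearest reproducible summit was 15579 bp (quartiles 5293 and 33618 bp), with 14001 and 14720 bp in the replicates. All cluster positions, taken every 10 bases, had a median of 11473 bp, and the 941 coding starts 9850 bp. Of the 14204 piRNA genes, 11388 lie in the right cluster, so these pooled medians also reflect its low summit density. In the left cluster the piRNA genes were not farther than positions, 5998 bp against 6478 bp, but with the 50% of summits of higher signal they were, 12225 bp against 11740 bp. Those of the right cluster lay at 19305 bp against 17156 bp, and at 24338 bp against 23414 bp with the stronger summits.

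Within 1000 bp of a summit lay 926 of the 14204 piRNA genes, or 6.52% (6.12% to 6.94%), against 9.13% of cluster positions, a ratio of 0.714. The replicates had 953 and 1013 such genes and ratios of 0.721 and 0.745 (0.733 ± 0.0170, SD, n = 2). In the left cluster the share was 13.0% for piRNA genes and 13.0% for positions, a ratio of 1.00 (1.00 and 1.05 in the replicates). In the right cluster it was 4.92% against 6.54%, a ratio of 0.752 (0.761 and 0.782). The ratio over both clusters, 0.714, thus lay below that of each. It also reflects that 11388 of the 14204 piRNA genes lie in the right cluster, where fewer positions are near a summit. With the 50% of summits of higher signal, both clusters had fewer piRNA genes than positions within 1000 bp. The left cluster then had 162 genes, or 5.75% (4.95% to 6.67%), against 7.24% of positions, a ratio of 0.795, and the right had a ratio of 0.684.

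Right at the summits piRNA genes were scarce in both clusters. Within 100 bp lay 17 piRNA genes, or 0.120% (0.0747% to 0.192%), against 1.07% of cluster positions, a ratio of 0.112. The replicate lists had 20 and 29 genes and ratios of 0.129 and 0.184 (0.156 ± 0.0392, n = 2). The left cluster had 8 genes (0.284% against 1.51% of positions) and the right 9 (0.0790% against 0.771%). Coding starts went the other way, with 19 of 941, or 2.02%, within 100 bp. Genes within one stretch share their neighbourhood and often their summit, so the intervals cover counting alone.

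The density of piRNA genes was lowest next to the summits. Up to 100 bp from a summit there were 0.257 piRNA genes per kb of sequence (0.295 and 0.422 in the replicates). From 100 to 250 bp there were 1.01 per kb (1.19 and 1.11), and from 250 to 500 bp 1.86 (1.86 and 1.92). From 500 to 750 bp the density reached 2.19, near the 2.29 per kb of the clusters as a whole. It was 1.97 from 750 to 1000 bp, 2.00 from 1000 to 1500 bp, 1.71 from 1500 to 2000 bp and 1.90 from 2 to 5 kb. From 5 to 20 kb it was 2.18. Beyond 20 kb it was 2.82, which mixes 1.06 in the left cluster and 3.32 in the right. In the left cluster the density from 500 to 750 bp was 1.51 per kb, above its own mean of 1.13, and in the right cluster 3.13, against a mean of 3.08.

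**Figure D5:**
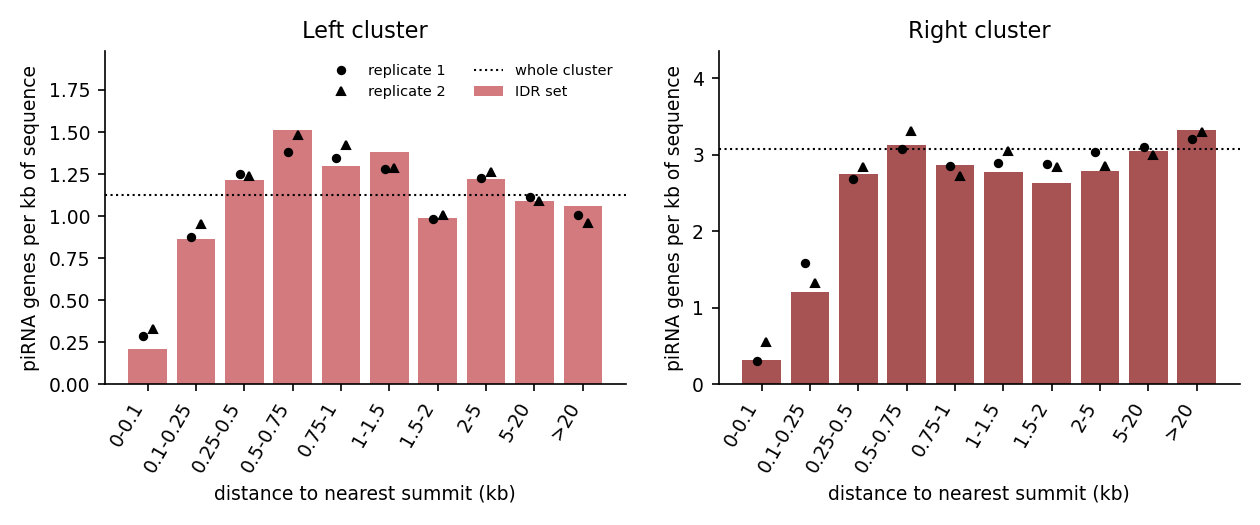
piRNA genes per kb of sequence by distance to the nearest NHR-71 summit (kb), left and right cluster. Bars are the reproducible set, circles and triangles the replicate lists, and the dotted line is the mean of the cluster (1.13 and 3.08 per kb). In both clusters the first bin, up to 100 bp, is the lowest (0.212 and 0.315 per kb), and from 500 to 1500 bp the left bars lie above the dotted line (up to 1.51 per kb) and the right bars near it (2.78 to 3.13).

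The same order held outside genes, in introns and in promoters, while exons held few piRNA genes and none within 100 bp of a summit. Among piRNA genes outside protein-coding genes and their promoters, 10 of 7601 lay within 100 bp of a summit, or 0.132%, against 1.08% of positions there. In introns it was 4 of 4707, or 0.0850%, against 0.961%. In promoter windows it was 3 of 1572, or 0.191%, against 2.03%. With all 30000 pooled positions in place of the reproducible set, 184 piRNA genes lay within 100 bp, a share 0.360 times that of positions.

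GC content moved with this result. The 100 bases around a cluster summit had a median GC content of 44%, against 32% in all tiled windows of the clusters and 28% around the starts of piRNA genes. In the rest of the chromosome the values were 42% at summits and 35% in tiled windows. When cluster positions were weighted to the GC content of the piRNA genes, 0.480% of them lay within 100 bp of a summit, and the ratio rose from 0.112 to 0.249 (0.277 and 0.389 in the replicates). Within 1000 bp it rose from 0.714 to 0.797 (0.808 and 0.823). By cluster, the weighted ratio at 100 bp was 0.387 in the left (0.511 and 0.567 in the replicates) and 0.242 in the right (0.224 and 0.402). Both replicates thus showed a milder scarcity in the left cluster than the reproducible set, which had 8 genes there. At 1000 bp it was 1.02 in the left (1.03 and 1.06 in the replicates) and 0.900 in the right (0.914 and 0.932). The pooled 0.797 lay below both, since the weighting kept the uneven split of piRNA genes between the clusters. Other properties that go with GC content were not tested.

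piRNA genes with and without the upstream word were not set apart in the same way by every list. In the reproducible set 3 of 9087 genes with GTTTCA lay within 100 bp of a summit (0.0330%) and 14 of 5117 without it (0.274%). Replicate 1 had 1 and 19, but replicate 2 had 14 and 15. Within 250 bp the shares were 0.759% with the word and 0.840% without. Both replicates had the opposite order there, 0.957% and 0.899% in replicate 1 and 1.09% and 0.762% in replicate 2. Within 1000 bp the shares were 6.82% and 5.98%, with 7.13% and 5.96% in replicate 1 and 7.55% and 6.39% in replicate 2.

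The summits nearest to piRNA genes ranged in signal from 84.5 to 858 over the 5 nearest genes of each cluster. In the right cluster 21ur-13200 was the one piRNA gene with a summit inside its 21 bases, 17 bp from its 5′ end. That summit had a signal of 858 (409 and 454 in the replicates), and the replicate summits lay 17 and 31 bp from the gene's start. The left gene 21ur-8870 lay 6 bp and the overlapping gene 21ur-14312 lay 9 bp from 1 summit of 129 (157 and 69.0). Their 5′ ends are 3 bases apart, so they count as 1 place.

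Of the other genes in the nearest 5 of the left cluster, 21ur-10481 lay 47 bp from a summit of 188, and 21ur-5229 lay 66 bp from one of 842, at the same distance in both replicates. The gene 21ur-4109 lay 66 bp from a summit of 338. On the right, 21ur-14078, whose 5′ end is in an intron, lay 39 bp from a summit of 175. The gene 21ur-11151 lay 66 bp from one of 168, with the nearest summit at 77 bp in replicate 1 and 257 bp in replicate 2. The summits near 21ur-1655 (62 bp, signal 84.5) and 21ur-3369 (68 bp, signal 103) were not among the strongest positions of both replicates. The nearest top summit was 2195 and 2210 bp away in the replicates for 21ur-1655, and 72 and 2457 bp for 21ur-3369. None of these 10 genes had GTTTCA in the upstream stretch, against 64.0% of all cluster piRNA genes. They were picked in the reproducible set alone. Within 100 bp, replicate 1 had 1 gene with the word and 19 without, but replicate 2 had 14 and 15.

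Seen from the summits, the nearest piRNA gene was often close, in clusters that hold 2.29 piRNA genes per kb. The median distance was 605.5 bp in the reproducible set, and 586 and 557.5 bp in the replicates. It was 831 bp in the left cluster and 516.5 bp in the right. The nearest coding start lay at a median of 1862 bp, against 1140 bp in the rest of the chromosome. Of the 330 summits, 144 (43.6%) had no piRNA gene within 1000 bp, and the fullest neighbourhood held 21. When starts of all annotated gene types were ranked by distance, a piRNA gene came first at 137 summits (41.5%), a protein-coding gene at 105 (31.8%), an ncRNA gene at 57, a tRNA gene at 13 and a snoRNA gene at 9. Such shares were not counted over all cluster positions, where 14204 piRNA genes stand beside 941 coding genes. These counts therefore do not show whether summits lie nearer to piRNA genes than other positions, or farther.

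The strongest cluster summits had the fewest piRNA genes around them and most often stood in promoters. Among the 110 cluster summits of highest signal, 361 and above, the mean was 2.27 piRNA genes within 1000 bp and 47 (42.7%) lay in promoters. Among the 110 in between it was 3.54 genes with 34 in promoters (30.9%). Among the 110 of lowest signal it was 3.45 genes with 23 in promoters (20.9%).

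The sequence at cluster summits resembled that of summits elsewhere on the chromosome and not that of piRNA genes. Words were searched on both strands of the 100 bases around each summit. GTTTCA stood in 20 of 330 windows, or 6.06% (3.96% to 9.18%), against 21.8% of all tiled windows of the clusters and 69.4% of windows around piRNA starts. The replicate lists gave 6.82% and 7.31%. In the rest of the chromosome it was 7.05% of summit windows and 10.2% of tiled windows. CTGTTTCA, which contains the shorter word, stood in 1 cluster summit window (0.303%), against 7.28% of tiled windows. The word AAAAAAAA stood in 4.55% against 15.5%. GC content differed between these windows, as given above, and its part in the word shares was not tested.

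GAGAGA stood in 89 of 330 cluster summit windows, or 27.0% (22.5% to 32.0%), against 4.55% of tiled windows and 1.96% of windows around piRNA starts. The replicates gave 27.6% and 25.4%. The rest of the chromosome had nearly the same share at its summits, 27.6%, over 5.28% of tiled windows. AGGTCA, the core hexamer that many nuclear receptors bind, stood in 8 cluster windows, or 2.42% (1.23% to 4.71%), against 1.93% of tiled windows. TGATAA, a site of zinc-finger factors that specify the gut, stood in 9.39% against 9.82%. These counts describe letters in a window and say nothing on which protein bound.

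Genes that make piRNAs and carry out their effects were looked up across the genome. Of 45 symbols listed, 42 matched an annotated protein-coding gene, and 10 of these, or 23.8% (13.48% to 38.53%), had a summit in the promoter, against the 20.8% of all coding genes. The replicate lists gave 11 and 13. The share was thus near the background.

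In the transcription group 1 of 12 genes had a summit, tofu-5, a gene of the complex on piRNA promoters, with a signal of 136 (79.3 and 52.4 in the replicates), in a window shared with nuo-6. Neither prde-1 nor any of the snpc genes had one in the reproducible set, though both replicate lists placed a summit in the window of snpc-4, with 175 and 132. In the processing group it was 4 of 10. These were tofu-1 with 448, tost-1 with 195, ife-3, an eIF4E gene, with 162, and pid-3 with 106. The windows of tofu-1 and tost-1 were shared with ruvb-1 and arx-6.

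Among effectors and amplification genes 5 of 20 had a summit. The highest signal was at simr-1, a Tudor domain gene of siRNA amplification, with 908 (521 and 385), in a window shared with C06A5.3. The gene ekl-1, whose product works with EGO-1, had 481, in a window shared with prpf-4. The RNA-dependent RNA polymerase gene ego-1 had 425 (241 and 187), and its relative rrf-1 had none. The nucleotidyltransferase gene mut-2 had 335 in a window shared with K04F10.3, and mut-16, a scaffold of mutator foci, had 108. The Piwi gene prg-1, the nuclear Argonaute gene hrde-1 and mut-7 had no summit in the reproducible set. Replicate 2 alone placed one of 60.4 at hrde-1 and one of 75.3 at mut-7.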

How the data were processed

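The authors deposited ranked peak lists for each of 2 biological replicates, for the pooled replicates and for the set past their irreproducible discovery rate (IDR) threshold, on ce11 and ce10. Replicate and pooled lists hold 30000 positions each, background included, per the submitters' file list. The deposited value used is a signal per peak, compared only within a list. No source used here gives the aligner, peak caller, IDR threshold or signal scale, and the control library was not analysed.

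Summits were counted on ce11 (1-based), and each summit of an interval was kept. All 8540 IDR summits were found among the pooled positions. Genes came from Ensembl release 115, sequence from RefSeq. Python 3.11.15 was used with Matplotlib 3.10.9, SciPy 1.17.1, pandas 2.3.3 and NumPy 2.4.6. Distances ran to the 5′ end of a gene. Wilson intervals (95%) cover counting only. Distance calculations were tested on simulated data. Members, lists and words were chosen with earlier results of these data known. Named are genes at the 10 strongest summits and the 5 nearest piRNA genes of each cluster, genes at the ends of its longest gap and the pathway list. The nearest genes with GTTTCA were chosen after their values were seen. Alternatives included other windows and distances, stricter and wider peak sets, and each replicate alone.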

Additional observations from a re-analysis of the deposited data

How the results depend on the processing

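The ratios over both clusters together kept their side of 1 in the alternatives given here, while most values moved by more than the SD between the replicates, which is small with n = 2. The density ratio (0.642) was 0.697 with the 50% of IDR peaks of higher signal, 0.629 with bounds moved inward by 0.25 Mb, 0.623 with the ce10 list and 0.556 against the middle alone, and 0.648 to 0.665 with 1 replicate left out. The promoter share of summits (31.5%) was 39.6% with the higher-signal peaks, 26.7% and 41.5% with windows from 500 and 2000 bp upstream, and 31.8% to 32.5% with 1 replicate left out. The median spacing (5772 bp) was 11940 bp with the higher-signal peaks, 6120 bp with 1 summit per interval, and 5912 to 5954 bp with 1 replicate left out. The share of piRNA genes near a summit (6.52%) was 2.75% within 500 bp, 12.0% within 2000 bp, 0.120% within 100 bp, 3.48% with the higher-signal peaks, 15.5% with all pooled positions and 6.82% for genes with GTTTCA, and 6.71% to 7.13% with 1 replicate left out. Its ratio to positions (0.714) was 0.550, 0.756 and 0.112 within 500, 2000 and 100 bp, 0.637 with the higher-signal peaks, 0.747 for genes with GTTTCA, 0.775 within the same kind of place, 0.797 with GC-matched positions and 0.249 with these within 100 bp, and 0.721 to 0.745 with 1 replicate left out. The median signal ratio (1.17) was 1.24 against the middle alone, and 1.07 to 1.17 with 1 replicate left out. The 100 bp distance and the GC matching were added after seeing the data. No paired analysis was possible because there is 1 group. The left cluster alone had a near ratio of 1.00, which fell to 0.795 with the higher-signal peaks. The right cluster had 0.752 and 0.684. With GC-matched positions the left had 1.02 and the right 0.900. The pooled ratios, 0.714, 0.637 and 0.797, lay below those of both clusters, as they also reflect the uneven split of piRNA genes between them. Other values moved by less than the replicate SD. With 2 replicates, 1 line and no read counts, the lists cannot show differences in depth, and the position of a summit is uncertain at the scale of the 100 bp result.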
